A study of Mus musculus with 6 samples.

Results

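The surface proteins described here are those by which mouse blood stem and progenitor cells are usually sorted. The set holds 10 genes: Slamf1, Cd48, Cd244, Cd34, Ly6a, Procr, Cd93, Prom1, Thy1 and Ptprc. A gene was represented by the array row that carried its symbol and no other. Of the 10, 9 had such a row, out of 19938 genes tested, and each had exactly 1 row. Cd244 is listed under its current symbol Cd244a, and Ly6a was not analysed here. The rule picks genes by name, but the set was drawn up with earlier results of these data known.

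Expression was measured on Affymetrix Mouse Gene 1.0 ST arrays, with 3 arrays for each of 2 cell populations from the bone marrow of young adult C57BL/6 mice. The first population was Scf-GFP+ cells, which carry a green fluorescent protein knocked into the gene for stem cell factor (Kitl) and were double-sorted from heterozygous knock-in mice. The second was whole bone marrow cells of wild-type mice, sorted without a marker named in the labels. Population, genotype and number of sorting passes therefore changed together between the groups. Sex was partly confounded with group as well, by the sex-linked transcripts given further on. RNA from 5000 cells was amplified for each array, and the 3 aliquots of a group are called independent without mention of separate animals. The p-values therefore cover only the spread among these aliquots, some of it perhaps technical. Because sex-linked transcripts differed among the Scf-GFP+ arrays, those aliquots did not all come from 1 animal. Green fluorescence reports transcription of 1 gene and does not select for a cell type.

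Blood stem cells are rare, and a combination of surface proteins is needed to find them. In the mouse, stem cells carry the SLAM family receptor CD150 (Slamf1) and lack CD48 and CD244, which appear on progenitors as these lose the ability to self-renew. CD34, CD93, prominin and the protein C receptor are found on progenitors and on endothelial cells, Thy1 is also carried by T cells and by several kinds of fibroblast, and CD45 (Ptprc) is on nearly all nucleated blood cells and absent from stroma. Whole marrow consists mainly of maturing blood cells, so its value for each gene is an average over many cell types and says little about the rare stem cells in it. In such bulk samples, fewer cells of a type and less RNA per cell cannot be told apart.

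The regions just before the start of 3 of these genes are shown, and no expression result rests on them. The 3 were picked by their values: Cd48 and Ptprc had the largest differences, while Slamf1, which lies close to Cd48, differed little. Each is the 250 bases before the start in RefSeq (GRCm38.p6), written in the gene's own direction. They lie at chr1:171681742-171681991 on the plus strand (Cd48), at chr1:171766882-171767131 on the plus strand (Slamf1) and at chr1:138175306-138175555 on the minus strand (Ptprc, the upstream one of its starts in the table). Capitals mark motif matches on either strand. The first motif, AGGAAG, is a core bound by PU.1 and related factors. The second, TGTGGT, is the core of Runx sites. The third, AGATAA, is of the kind bound by Gata factors. No matches of different motifs overlap in these windows.
Cd48: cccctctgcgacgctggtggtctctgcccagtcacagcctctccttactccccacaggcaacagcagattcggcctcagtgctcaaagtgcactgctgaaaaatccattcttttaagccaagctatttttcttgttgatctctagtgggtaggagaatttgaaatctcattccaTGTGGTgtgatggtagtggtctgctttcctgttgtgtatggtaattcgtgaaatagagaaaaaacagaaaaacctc
Slamf1: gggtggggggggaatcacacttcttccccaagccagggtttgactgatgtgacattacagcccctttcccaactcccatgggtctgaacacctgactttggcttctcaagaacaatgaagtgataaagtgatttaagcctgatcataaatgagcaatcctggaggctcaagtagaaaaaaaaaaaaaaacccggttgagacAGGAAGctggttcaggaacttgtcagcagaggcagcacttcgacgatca
Ptprc: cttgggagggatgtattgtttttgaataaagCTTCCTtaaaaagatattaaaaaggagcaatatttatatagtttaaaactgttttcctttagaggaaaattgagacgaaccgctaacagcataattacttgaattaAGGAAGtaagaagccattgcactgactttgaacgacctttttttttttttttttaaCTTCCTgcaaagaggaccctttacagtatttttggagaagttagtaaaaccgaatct

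The Ptprc window held 3 matches to AGGAAG, the Slamf1 window 1 and the Cd48 window 0, and the Cd48 window held 1 match to TGTGGT. Among the 32851 windows of the same length in the table, 29.5% held the first motif, 14% the second and 9.99% the third. Of the 9 measured genes, 7 had at least 1 window in the table, 9 windows in all, and 5 of these windows, from 4 genes, held AGGAAG. The matches are a description of letters, and binding was not measured in this series.

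Of the 9 measured surface markers, 6 were called lower in Scf-GFP+ cells, 0 higher and 3 neither. A call required a limma adjusted p (Benjamini-Hochberg over all 19938 genes) below 0.05 and a change of 2-fold or more. By the same rule 7.89% of all genes were called lower and 9.01% higher. The 6 were Ptprc, Cd48, Cd244a, Cd34, Cd93 and Prom1. No marker was called higher. Without the fold minimum, a limma adjusted p below 0.05 put 7 of the 9 lower and 0 higher, where 13.2% of all genes were lower. The median difference of the 9 genes was -1.02 on the log2 scale, against -0.08 over all genes. All differences take whole marrow away from Scf-GFP+ cells, so a negative value is lower in Scf-GFP+ cells and 1 log2 unit is 2-fold. All 3 Scf-GFP+ arrays lay below all 3 whole marrow arrays for 7 of the 9 genes, where 26.4% of all genes were separated in that direction. The reverse order, seen for 19.0% of all genes, occurred for 0 of the 9.

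**Figure D1:**
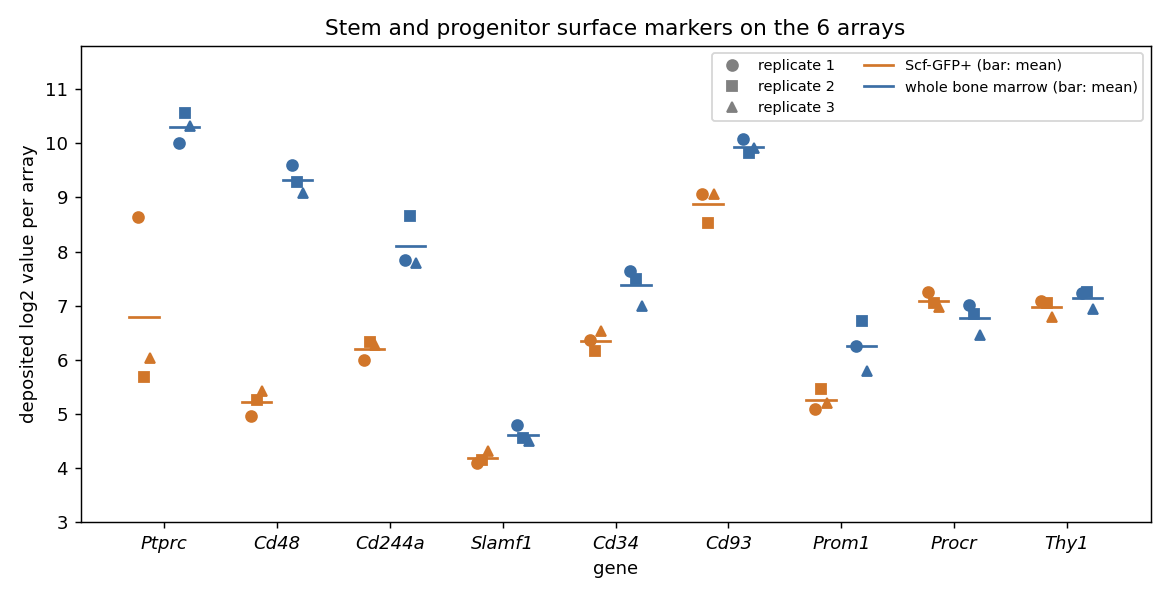
Deposited log2 values of the 9 measured surface markers (y axis) by gene (x axis), with each point an array, the marker shape its replicate number and each bar a group mean. Ptprc and Cd48 show the widest gaps between the groups, Scf-GFP+ replicate 1 stands at 8.65 for Ptprc, and the groups overlap for Procr and Thy1.

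The pan-leukocyte marker Ptprc, whose product is the phosphatase CD45 that switches on Src family kinases, separated the groups despite 1 discordant array. Its log2 value was 8.65, 5.68 and 6.03 on the arrays of Scf-GFP+ replicates 1, 2 and 3, and 10.00, 10.57 and 10.33 in whole marrow. Replicate 1 of the Scf-GFP+ cells lay well above the other two but still below every whole marrow array. The difference was -3.52 ± 0.74 (SE, n = 3 per group), or 11.4-fold lower (limma adjusted p = 0.0137). Without Scf-GFP+ replicate 1 it was -4.45 (limma adjusted p = 8.43e-05, from 8.43e-05 to 0.0495 over the alternatives).

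Neutrophil transcripts moved with Ptprc on that array. All 14 listed neutrophil markers were higher in Scf-GFP+ replicate 1 than in replicates 2 and 3, where 6581 of all 19938 genes were. Of the 14, 11 exceeded the mean of those replicates by more than 2 on the log2 scale, a cut not counted over all genes. The excess was small for Fcnb (0.06), Elane (0.30) and Mpo (0.31). Their mean log2 level was 9.28 on replicate 1 and 5.66 and 5.81 on the others, with 11.92 to 11.93 in whole marrow. S100a8, a calgranulin of mature neutrophils, measured 12.44, 6.01 and 6.49 in the 3 Scf-GFP+ arrays. Mpo, the myeloperoxidase of immature granulocytes, measured 6.57, 6.20 and 6.33 there and 11.84 to 12.08 in whole marrow. The part of these transcripts in the Ptprc value was not tested. For each of the other 8 surface markers, replicate 1 lay within 0.6 of the mean of replicates 2 and 3, and its distance ran from -0.38 for Cd48 to 0.27 for Cd93, against 2.79 for Ptprc.

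**Figure D2:**
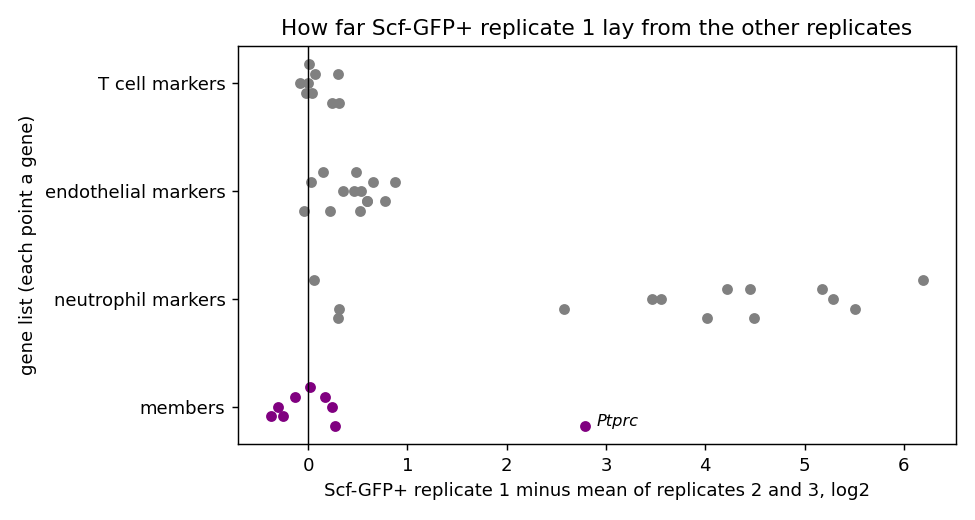
Scf-GFP+ replicate 1 minus the mean of Scf-GFP+ replicates 2 and 3 on the log2 scale (x axis) for each gene of 4 lists (y axis, 1 point per gene, spread vertically for legibility). Ptprc, at 2.79, lies apart from the other 8 surface markers and within the range of the neutrophil markers.

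The SLAM family members of the set are immunoglobulin-like receptors that bind one another or close relatives on neighbouring blood cells. Cd48, a lipid-anchored ligand of CD244 and CD2, had the largest difference of the 9 genes. It measured 4.97, 5.25 and 5.43 in Scf-GFP+ cells and 9.59, 9.28 and 9.08 in whole marrow, and no array of one group came near the other. Its difference was -4.10 ± 0.18 (17.1-fold lower, limma adjusted p = 1.44e-05), with a 95% interval of -4.53 to -3.66. The Scf-GFP+ values lie around the first quartile of the arrays (5.19 to 5.31), where arrays lose resolution, so the size is approximate.

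Cd244a, the receptor that binds CD48 on natural killer cells and some progenitors, measured 6.01, 6.33 and 6.28 in Scf-GFP+ cells and 7.84, 8.66 and 7.79 in whole marrow. Whole marrow replicate 2 was the highest, and the groups did not overlap. The difference was -1.89 ± 0.25, or 3.7-fold lower (limma adjusted p = 0.00181). Both Cd48 and Cd244a kept their call with each of the 6 arrays left out in turn.

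Slamf1, which encodes CD150, was not called. It measured 4.09, 4.14 and 4.32 in Scf-GFP+ cells and 4.80, 4.55 and 4.51 in whole marrow. The groups were separate by a narrow margin, and every value lay below the first quartile of each array. The difference of -0.44 ± 0.13 had an adjusted p of 0.0457 in limma but was only 1.35-fold, below the 2-fold minimum. With any 1 array left out the limma adjusted p was above 0.05 (0.0514 to 0.128). It was also above 0.05 after quantile normalization was repeated (0.0916). At an adjusted p below 0.05 without a fold minimum, 13.2% of all genes were lower. RMA gives no detection call, so these low values do not show whether the transcript was present in either population.

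**Figure D3:**
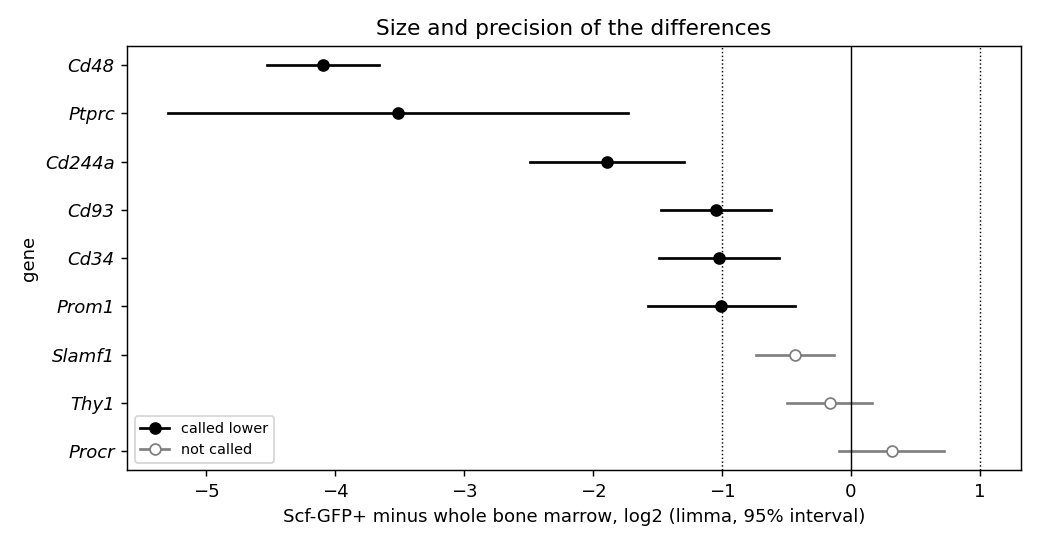
Difference between Scf-GFP+ cells and whole bone marrow on the log2 scale (x axis) for the 9 measured surface markers (y axis), with limma's 95% interval as the line and dotted lines at a 2-fold difference. The intervals of Cd34, Cd93 and Prom1 cross the 2-fold line, those of Cd48, Ptprc and Cd244a lie beyond it, and those of Procr and Thy1 include 0.

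The SLAM genes lie side by side on chromosome 1. In the RefSeq gene order, a run of 8 genes from Cd244a to Slamf6 holds Cd244a, Ly9, Slamf7, Cd48, the pseudogene-named Tma7-ps, Slamf1, Cd84 and Slamf6, and 7 of the 8 were measured. Of these 7, 6 were called lower in Scf-GFP+ cells, with all arrays and again without Scf-GFP+ replicate 1. The 4 neighbours outside the marker set were all among them. Slamf7, found on plasma cells and natural killer cells, differed by -3.30 ± 0.20. Cd84, a platelet and leukocyte receptor, differed by -3.34 ± 0.33. Slamf6, a receptor of T and B cells, differed by -2.98 ± 0.30, and Ly9, which binds itself between lymphocytes, by -2.76 ± 0.27. Their limma adjusted p lay between 5.19e-05 and 0.000525. The Scf-GFP+ values of Slamf7 (4.69 to 4.87) and Slamf6 (4.68 to 4.98) lay below the first quartile of each array. Those of Cd84 on replicates 2 and 3 (4.72 and 4.90) did too, so these sizes are approximate. Slamf1 was the 1 measured gene of the run that was not called. Itln1 and Vangl2, the genes on either side of the run, differed by -0.09 ± 0.15 and 0.38 ± 0.13 and were not called.

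**Figure D4:**
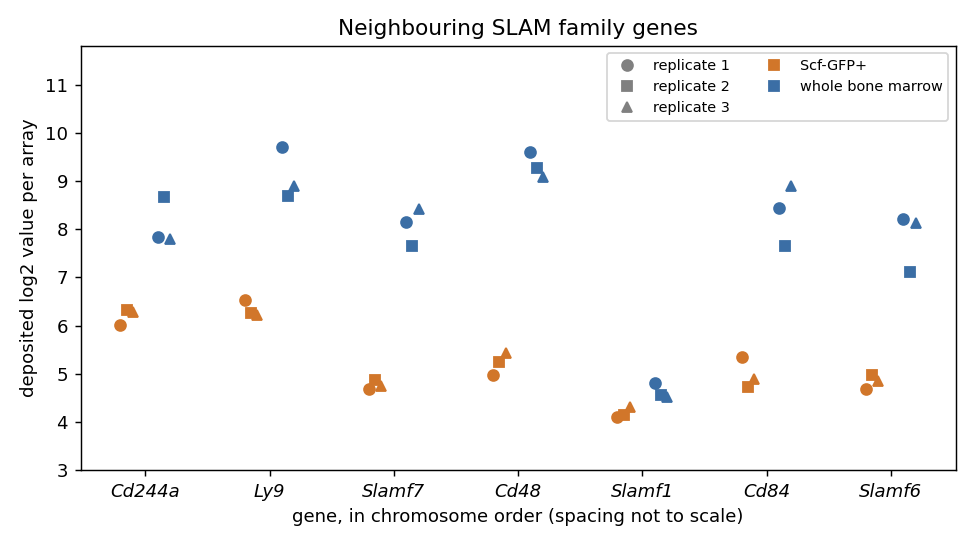
Deposited log2 values (y axis) of the 7 measured genes in the SLAM run on chromosome 1, in gene order without scale (x axis), with each point an array. Every whole marrow array lies above every Scf-GFP+ array for each gene, and at Slamf1 all 6 arrays lie between 4.09 and 4.80.

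A list of the wider SLAM family and its partners includes the 4 neighbours just described. Of its 13 measured genes, 10 were called lower and 0 higher, with a median of -2.76, and from 8 to 10 were called lower with 1 array left out. At an unadjusted p below 0.05 limma put none of the 13 higher, a cut for which the share of all genes was not counted. Cd2, which encodes a receptor for CD48, had the largest difference at -4.37 ± 0.10. Among the phosphatases recruited by SLAM receptors, Ptpn6 (SHP-1) fell by 3.50 and Inpp5d (SHIP-1) fell by 3.37, while Ptpn11 (SHP-2) differed by -0.14 ± 0.21 and was not called. The adaptor Sh2d1b1 (EAT-2) was called at -1.41 (limma adjusted p = 0.0299), but with single arrays left out it kept the call only when that array was whole marrow replicate 1. Fyn, a kinase that joins SLAM signalling, was called at -1.21 ± 0.29 but not when any 1 of 4 arrays was dropped (replicates 2 and 3 of either group). The list then held 8 genes called lower in each case. Sh2d1a (SAP), the adaptor of T and natural killer cells, was not called (-0.66 ± 0.26).

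Of the 4 markers shared between progenitors and endothelial cells, Cd34, Cd93 and Prom1 sat at the 2-fold limit, and Procr is described further on. Cd34, a sialomucin that can serve as a ligand for L-selectin, measured 6.36, 6.16 and 6.53 in Scf-GFP+ cells and 7.63, 7.49 and 7.00 in whole marrow. The groups did not overlap, and whole marrow replicate 3 came nearest to the Scf-GFP+ cells. The difference was -1.02 ± 0.19 (2.03-fold lower, limma adjusted p = 0.00884), with a 95% interval of -1.49 to -0.56. The call was lost without Scf-GFP+ replicate 2 (-0.93) and without whole marrow replicate 1 (-0.89) or 2 (-0.97), each time because the difference fell short of 2-fold.

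Cd93, a C-type lectin-like receptor first known from early B cell and myeloid progenitors, measured 9.07, 8.53 and 9.06 in Scf-GFP+ cells and 10.08, 9.81 and 9.91 in whole marrow. Scf-GFP+ replicate 2 was the lowest and the groups did not overlap. The difference was -1.05 ± 0.18 (2.07-fold lower, limma adjusted p = 0.00549), and its 95% interval ran from -1.47 to -0.62. It fell short of 2-fold without Scf-GFP+ replicate 2 (-0.87) or whole marrow replicate 1 (-0.97).

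Prom1, which encodes prominin (CD133), a protein of membrane protrusions, measured 5.09, 5.46 and 5.21 in Scf-GFP+ cells and 6.26, 6.71 and 5.80 in whole marrow. The groups did not overlap, though whole marrow spread over nearly 1 log2 unit. The Scf-GFP+ values lie around the first quartile of the arrays (5.19 to 5.31), so the size is approximate. The difference was -1.00 ± 0.24 (2.01-fold lower, limma adjusted p = 0.0219), with a 95% interval of -1.58 to -0.43. With Scf-GFP+ replicate 1 or 3 left out the difference was -0.92 or -0.98, and with whole marrow replicate 1 or 2 left out it was -1.00 or -0.78, and in these 4 fits Prom1 was not called. It also fell just short of 2-fold when the arrays were shifted to a common median (-0.99) or quantile normalized again (-0.95).

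Of 14 listed endothelial markers, 2 were called higher, 2 lower and 10 neither, and their mean log2 level was 7.13, 6.90 and 6.47 in the 3 Scf-GFP+ arrays against 6.60 to 6.68 in whole marrow. Emcn, endomucin, a sialomucin of vessel walls, had the larger of the 2 differences called higher, at 2.20 ± 0.18 (limma adjusted p = 0.000196). Cdh5, the endothelial cadherin, measured 7.54, 8.09 and 6.55 in Scf-GFP+ cells and 5.74 to 6.13 in whole marrow, a difference of 1.40 (limma adjusted p = 0.0345) that kept its call only when the array left out was Scf-GFP+ replicate 3. Pecam1, carried by endothelial and many blood cells, was called lower (-1.90 ± 0.26). Erg, an endothelial transcription factor also used in blood stem cells, was called lower as well (-1.46 ± 0.42), a call that held with Scf-GFP+ replicate 1 dropped but not with any other array dropped. The part of endothelial cells in the values of Cd34, Cd93, Prom1 and Procr was not tested.

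Procr and Thy1, whose levels did not pass the test, were the markers for which the groups overlapped. Procr, the endothelial protein C receptor, which marks stem cells and also endothelium, measured 7.25, 7.06 and 6.97 in Scf-GFP+ cells and 7.02, 6.85 and 6.46 in whole marrow. Its difference of 0.32 ± 0.17 (limma adjusted p = 0.228) was the 1 positive difference in the set, and its 95% interval of -0.09 to 0.72 stays below a 2-fold rise. Thy1, a small lipid-anchored immunoglobulin-like protein, measured 7.09, 7.05 and 6.79 in Scf-GFP+ cells and 7.23, 7.25 and 6.95 in whole marrow. Its difference was -0.17 ± 0.14 (limma adjusted p = 0.43), with a 95% interval of -0.50 to 0.17. Of 9 measured T cell markers, 3 were called lower, among them Cd3d at -5.24 ± 0.17, and Cd3e, Cd4 and Cd8a were not called. Of 10 measured markers used to deplete mature lineages from marrow before stem cells are sorted, 5 were called lower and 0 higher, among them Cd79b, a part of the B cell receptor, at -4.59 ± 0.11. Of 6 measured megakaryocyte markers, 1 was called lower, the platelet chemokine Pf4 (-3.61 ± 0.45), and Gp9, a platelet glycoprotein near the 2-fold limit (-0.98 ± 0.20), joined it when Scf-GFP+ replicate 1 or whole marrow replicate 3 was dropped.

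The genes that work with each marker moved in different directions. In the protein C pathway, 2 of 9 measured genes were called higher and 0 lower: Pros1, the plasma cofactor of activated protein C, at 4.48 ± 0.19, and Tfpi, an inhibitor of tissue factor, at 2.80 ± 0.43. At an unadjusted p below 0.05, limma put 3 of the 9 higher and 4 lower, a cut for which the share of all genes was not counted. The median of the list was -0.20. Thbd, thrombomodulin, which binds thrombin to activate protein C, lies next to Cd93 in the gene order and belongs to the same lectin family. Thbd differed by 0.97 ± 0.20 (limma adjusted p = 0.0113), just under 2-fold, while the value for Cd93 was -1.05. Thbd was called higher once Scf-GFP+ replicate 3 (1.13), whole marrow replicate 1 (1.05) or whole marrow replicate 2 (1.05) was dropped. F2rl2, a thrombin receptor, was not called with all arrays (-0.91 ± 0.15) but was called lower once whole marrow replicate 1 was dropped (-1.02). Of 8 measured genes of the Cd93 family and its partners, 3 were called higher and 0 lower: Igfbp7, a matrix protein that binds CD93, at 5.10 ± 0.15, and the family members Clec14a at 1.69 ± 0.12 and Cd248 (endosialin) at 1.33 ± 0.17. At an unadjusted p below 0.05, limma put 4 of these 8 higher and 3 lower, again without a share of all genes.

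Among 9 measured substrates and partners of CD45, 6 were called lower and 0 higher, with a median of -1.21. These included Fgr, a myeloid Src family kinase, at -3.14 ± 0.21, Cd22, a B cell inhibitory receptor, at -3.08 ± 0.34, Csk, the kinase that opposes CD45, at -1.76 ± 0.30, and Ptprcap, which associates with CD45, at -1.16 ± 0.26. At an unadjusted p below 0.05, limma put 0 of the 9 higher, a cut for which the share of all genes was not counted. Ptprcap was no longer called when Scf-GFP+ replicate 2, Scf-GFP+ replicate 3, whole marrow replicate 1 or whole marrow replicate 3 was dropped, and with single arrays left out 4 to 6 of the 9 genes were called. Lgals1, a lectin that binds CD45 sugars, had a difference of 0.29 ± 0.15, which was not called. Of 8 measured sialomucins and selectin partners, Selplg (-3.33 ± 0.27), the P-selectin ligand of leukocytes, and Spn (-1.58 ± 0.22), leukosialin, were called lower. Emcn, described among the endothelial markers, was called higher, and Podxl, the closest relative of CD34 on vessels, differed by 0.20 ± 0.16. Cd164, endolyn, was not called (0.97 ± 0.30) but was called higher once whole marrow replicate 2 was dropped (1.33), and also after quantile normalization was repeated.

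Thy1 and the protein of Cd48 are held in the membrane by a glycosylphosphatidylinositol (GPI) anchor. Of 18 genes that build, attach or remodel this anchor, 17 were not called. Pigk, a subunit of the transamidase, was called higher at 1.06 ± 0.26 (limma adjusted p = 0.0233). Dropping replicate 2 or 3 of either group ended the call of Pigk. Pigh, at 0.94 ± 0.17, was called higher once replicate 1 of either group was dropped. Pign, at 0.88 ± 0.25, was called higher once replicate 3 of either group was dropped. The median of the list was 0.12. In the Ly6 family of anchored proteins, 3 of 15 measured genes were called lower and 1 higher. Ly6d, a marker of lymphoid progenitors, differed by -3.46 ± 0.25, and Plaur, the urokinase receptor, by -4.24 ± 0.53. Plaur measured 7.94, 5.81 and 6.13 on Scf-GFP+ replicates 1, 2 and 3, and without replicate 1 its difference was -4.89. The gene called higher, Ly6g6d at 1.09 ± 0.18, fell short of 2-fold without whole marrow replicate 3 (0.92). Gpihbp1, which carries lipoprotein lipase across capillaries, was not called (0.74 ± 0.35) but was called higher once Scf-GFP+ replicate 2 was dropped (1.11). Ly6g, the neutrophil antigen, measured 8.56, 4.27 and 4.80 in Scf-GFP+ cells and 11.58 to 11.71 in whole marrow. Members of the Ly6 cluster are close copies, so which copy was measured is uncertain.

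Other receptors used to define stem and progenitor cells followed the same direction for the most part. Of 22 measured, 13 were called lower, 1 higher and 8 neither, with a median of -1.29. Cxcr4, the receptor of the chemokine Cxcl12, was 4.23 lower on the log2 scale (-4.23 ± 0.22), and the integrin subunit Itga4 differed by -3.91 ± 0.33. The granulocyte colony stimulating factor receptor Csf3r differed by -3.73 ± 0.43 and the Fc receptor Fcgr3 by -3.35 ± 0.17. Csf3r measured 7.87, 6.36 and 6.22 on Scf-GFP+ replicates 1, 2 and 3, and without replicate 1 its difference was -4.26. Flt3, a receptor of lymphoid-primed progenitors, differed by -1.79 ± 0.24 and Il7r by -1.29 ± 0.18. Kit, the receptor for stem cell factor, differed by -0.26 ± 0.19 (limma adjusted p = 0.381) and was not called. Eng, endoglin, which is on stem cells, endothelium and mesenchymal cells, was the 1 gene called higher (1.44 ± 0.16), and Cd9 joined it when Scf-GFP+ replicate 1 was left out.

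Regulators inside stem and progenitor cells were divided. Of 16 measured, 5 were called lower, 2 higher and 9 neither, with a median of -0.14. Myb, needed for progenitor growth, differed by -3.26 ± 0.13, and the transcription factors Lyl1, Gfi1b and Lmo2 by -2.52 ± 0.12, -2.30 ± 0.21 and -2.00 ± 0.19. Runx1, a transcription factor of blood and also of skeletal cells, measured 11.30, 10.96 and 11.32 in Scf-GFP+ cells and 8.85 to 9.31 in whole marrow, a difference of 2.16 ± 0.17. Ctnnal1, alpha-catulin, was higher by 1.33 ± 0.23. Hlf, Mecom and Fgd5, used as stem cell markers within marrow, differed by 0.84 ± 0.26, 0.36 ± 0.38 and 0.10 ± 0.14 and were not called, although Hlf was called higher without Scf-GFP+ replicate 3 (1.04).

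**Figure D5:**
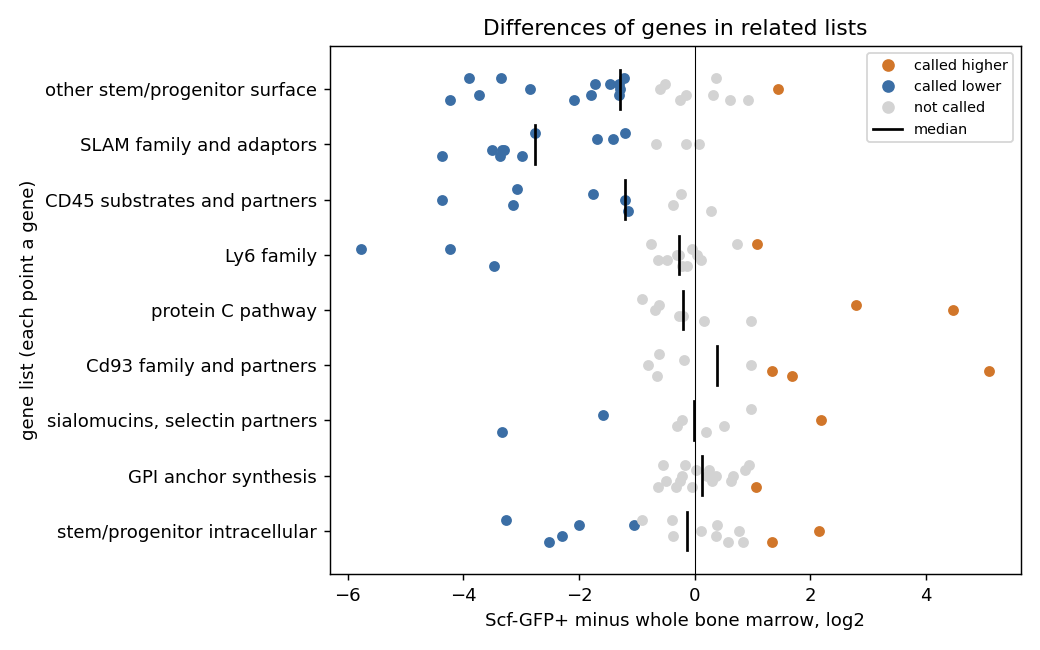
Difference between Scf-GFP+ cells and whole bone marrow on the log2 scale (x axis) for the measured genes of 9 lists related to the surface markers (y axis, 1 point per gene, spread vertically for legibility), with a bar at each list's median. The SLAM list has 10 of 13 genes called lower, whereas the protein C and Cd93 lists have genes called higher and 0 called lower. The medians of the protein C and Cd93 lists are -0.20 and 0.39.

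The genes with the most similar profile over the 6 arrays were found by Pearson correlation among 17054 named genes, as a description in which the points share arrays and the group difference dominates. For Ptprc these were Il21r, Stfa3 and Rasip1 (r from 0.997 to 0.999). Stfa3, a stefin, differed by -4.82 between the groups and Il21r by -0.65. For Cd48 they were Lrrfip2, Rps19 and Asf1b, for Cd244a Prss34, Trim30e-ps1 and Gen1, and for Cd93 Ttll3, Ift140 and Pnma1. The best match for Slamf1 was Rxfp1 (r = 0.996), for Cd34 Tmem63c (r = 0.997), for Prom1 Bcas1 (r = 0.997), for Procr Cntnap5b (r = 0.996) and for Thy1 Prss2 (r = 0.990).

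The sorted gene and a list of stromal surface markers were set beside the labels. Kitl was 47.5-fold higher in Scf-GFP+ cells, which checks the sort and is no finding. Of 14 stromal surface markers, 8 were called higher, including Lepr, Pdgfra and Pdgfrb. Cd44 and Alcam were the 2 called lower, and 4 (Nt5e, Mcam, Ngfr and Cspg4) were called neither. That list was chosen with earlier results of these data known, so it is no independent check of the labels. Xist, made from the inactive X chromosome of female cells, stood at 11.50 and 11.81 on the first pair of Scf-GFP+ arrays. It stood at 4.99 to 5.10 on the other 4 arrays. Eif2s3y, carried on the Y chromosome, stood at 4.41 and 3.72 on that pair and at 7.33 to 8.23 on the other 4. Sex thus split the Scf-GFP+ arrays and was partly confounded with group. In a fit that models this split, the group difference is that of Scf-GFP+ replicate 3 alone. Its spread is taken from the other arrays, so that array is assumed to vary as they do. Cd48, Cd244a and Ptprc were called lower in it. Ctnnal1 (1.025), Ly6g6d (0.91) and Cdh5 (0.55), called higher with all arrays, were not called in it. Cd9 (1.35), not called with all arrays, was called higher in it. Cd34 (-0.84, limma adjusted p = 0.106), Cd93 (-0.87, limma adjusted p = 0.073) and Prom1 (-1.05, limma adjusted p = 0.123) were not called in that fit. The SLAM list then had 8 genes called lower and the list of CD45 partners 3.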

How the data were processed

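The deposited data are a single table of log2 expression, a column per array. RMA, affy and limma appear in the submitters' processing notes with neither version nor role, and the build of the array annotation is not given in the sources used here. RMA corrects background, equalises quantiles and summarises probes, which compresses large differences and has no detection call. The values were used as deposited. Array medians lay between 6.56 and 6.63. Of 28940 rows, 21789 had exactly 1 gene symbol, 1621 several and 5530 none. Symbols were updated through Entrez identifiers with RefSeq GRCm38.p6. The symbol of 91 rows not found there was kept. For 999 genes with several rows the row with the highest mean was used.

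Groups were compared with limma 3.58.1 (lmFit, eBayes) in R 4.3.3, without covariates. The fit was tested on simulated data. The exact permutation test of 3 arrays against 3 cannot go below 0.1 and was not used. Markers and 15 related gene lists were chosen with earlier results of these data known. Lists are described by counts and medians. Their counts at an unadjusted p below 0.05 have no share of all genes beside them. Named genes are the surface markers, up to 4 called genes per list, their partners, paralogs and neighbours, and the 3 most similar profiles per marker. Other genes named for a list, such as S100a8, Runx1 and Hlf, were chosen after their values were seen. Same-numbered arrays did not deviate together (r = -0.063, -0.0218 and 0.0662), so numbers were not taken as pairs.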

Additional observations from a re-analysis of the deposited data

How the results depend on the processing

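Cd48 and Cd244a were called lower under each of the 17 alternatives tried. Not all of these could have ended a call: each marker has 1 row, so both alternatives for combining rows leave its difference as it was, and lifting the fold minimum cannot remove a call. Ptprc was called under 16 and missed only the stricter threshold of an adjusted p below 0.01. Procr and Thy1 were not called under any of 17, and Slamf1 passed only without a fold minimum. Cd34, Cd93 and Prom1, which lie at the 2-fold limit, lost their call under 4 of 17, 3 of 17 and 8 of 16 alternatives. The number of markers called lower was 6, with a range of 3 to 6 when 1 array was left out and 3 with the term for the sex-linked split. Without a fold minimum, 2758 genes were higher and 2635 lower. No difference changed sign. Slamf1 and Prom1 were among the 30% of genes with the lowest means, and so have no value under that filter. With the replicate block, 6 markers were called lower, with 1775 genes higher and 1563 lower over all genes. The block changed no call of a marker. Both the lowest values, such as those of Slamf1, and the number of arrays limit the precision.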
